A study of Lotus japonicus with 12 samples.

Results

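The genes described here were measured in root nodules of the legume Lotus japonicus at 10 and 21 days post inoculation (dpi). By group medians, they changed little with age in wild-type (WT) nodules and stood near the WT level in young cpop1 mutant nodules. In mature cpop1 nodules their medians were at least 2-fold lower than in young ones. In single WT libraries and in the fit described below, not every gene held its level. They were picked by their own values. From the deposited table of FPKM (fragments counted per length of transcript and per total of sequenced fragments), IDs beginning with LotjaGi, carrying a chromosome digit from 1 to 6 and not ending in _LC were kept if they reached 1 FPKM in at least 3 of 12 libraries and averaged under 1000 FPKM, which left 16701 of 29531 features. Group medians of log2(FPKM + 1) then had to differ by less than 1 between cpop1 and WT at 10 dpi, by less than 0.5 between 21 and 10 dpi in WT, and by -1 or less between 21 and 10 dpi in cpop1. The first 2 conditions held for 7834 genes and all 3 for 418 of them (5.34%). The 150 genes with the lowest cpop1 change are the members. Among the same 7834 genes, 233 were at least 1 higher at 21 than at 10 dpi in cpop1.

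The 4 groups had 3 libraries each: WT at 10 dpi, WT at 21 dpi, cpop1 at 10 dpi and cpop1 at 21 dpi. The mutant is also named hemf2 in the labels, and its allele is not stated in the labels. All plants were grown in vermiculite and inoculated with one strain of Mesorhizobium loti, so no group was free of rhizobia. The labels do not say how many plants or nodules went into a library or whether replicate libraries had separate plants as their source, so the spread between them may be technical.

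Root nodules are organs in which legume cells house rhizobia that reduce atmospheric nitrogen. Heme, made by a chain of enzymes from a small precursor, is the cofactor of leghemoglobin, the abundant protein that binds oxygen in infected cells and protects the oxygen-sensitive nitrogenase of the bacteria. The series title names CPOP1 as a heme synthesis enzyme. Nodules mature over the first weeks and later senesce, and a nodule that fixes little nitrogen can age early.

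The files pair no ID with a gene name, and 0 of 40429 genes of the RefSeq table for assembly LjGifu_v1.2 carried one of these IDs. The members are therefore given by ID, with no role, and neither the mutated gene nor nodule marker genes could be checked against the labels. In whole nodules, fewer cells of a type and less RNA per cell cannot be told apart.

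Between 18486 and 20623 features per library reached 1 FPKM, and the read depth is unknown. WT 10 dpi replicate 3 stood apart from its group: its mean correlation across tested genes was 0.843 with its own replicates and 0.935 with the cpop1 10 dpi libraries. The 3 most abundant features held 9.41% to 17.8% of total FPKM in 9 libraries and 29.6% to 31.6% in the 3 mature cpop1 libraries. FPKM depend on the total of a library, and the members were low in the libraries in which these transcripts held the largest share. After rescaling without the 20 most abundant features, the median fitted cpop1 change over the members was -1.52 on the log2 scale, against -1.64 as deposited. Shifting library medians to one value and quantile normalization shrank it further, and making library totals equal enlarged it, as given at the end.

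The members' median level was 24.5, 25.5 and 26.1 FPKM in the 3 WT 10 dpi libraries and 24.5, 24.3 and 29.2 FPKM in the WT 21 dpi libraries. It was 27.5, 32.7 and 26.2 FPKM in the cpop1 10 dpi libraries and 7.16, 8.10 and 7.06 FPKM in those of 21 dpi. The 3 mature cpop1 libraries were thus the low ones, and the other 9 lay close together, as the choice of members requires. The 7834 genes that were steady in WT and alike at 10 dpi had medians of 14.3 to 15.4 FPKM in mature cpop1 nodules and 16.5 to 18.1 FPKM in the other libraries.

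**Figure D1:**
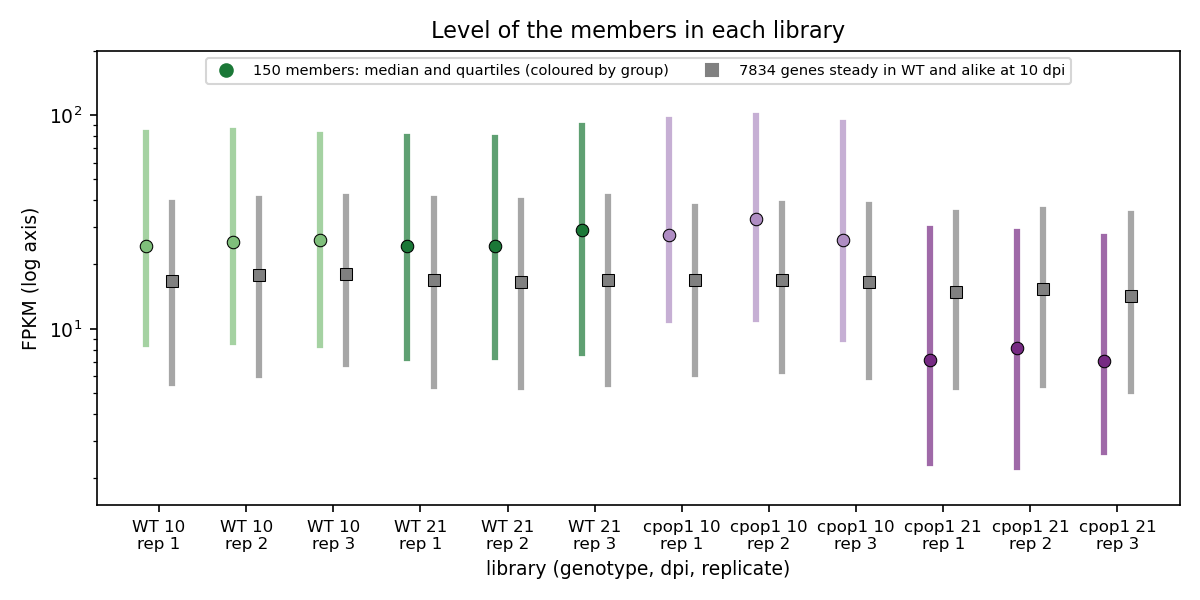
Median (points) and quartiles (bars) of FPKM on a log axis in each of the 12 libraries, for the 150 members (circles, coloured by group) and for the 7834 genes that met the conditions on WT and on 10 dpi (grey squares). The members' medians sit between 7.06 and 8.10 FPKM in mature cpop1 nodules and between 24.3 and 32.7 FPKM elsewhere.

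The change of group medians from 10 to 21 dpi in cpop1 ran from -4.71 to -1.39 over the members, with a median of -1.68 on the log2(FPKM + 1) scale, and 39 members were at -2 or below. In WT the change of medians ran from -0.50 to 0.46, with 106 members slightly lower and 44 slightly higher at 21 dpi. This lean depended on the scaling: the median fitted WT change over the members was -0.12 as deposited, 0.24 with library medians shifted to one value and 0.091 after quantile normalization. In FPKM, the median member kept 26.0% of its young cpop1 level in mature cpop1 nodules, and no member kept more than 37.7%. These values are the ones that chose the members and are given as a description.

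**Figure D2:**
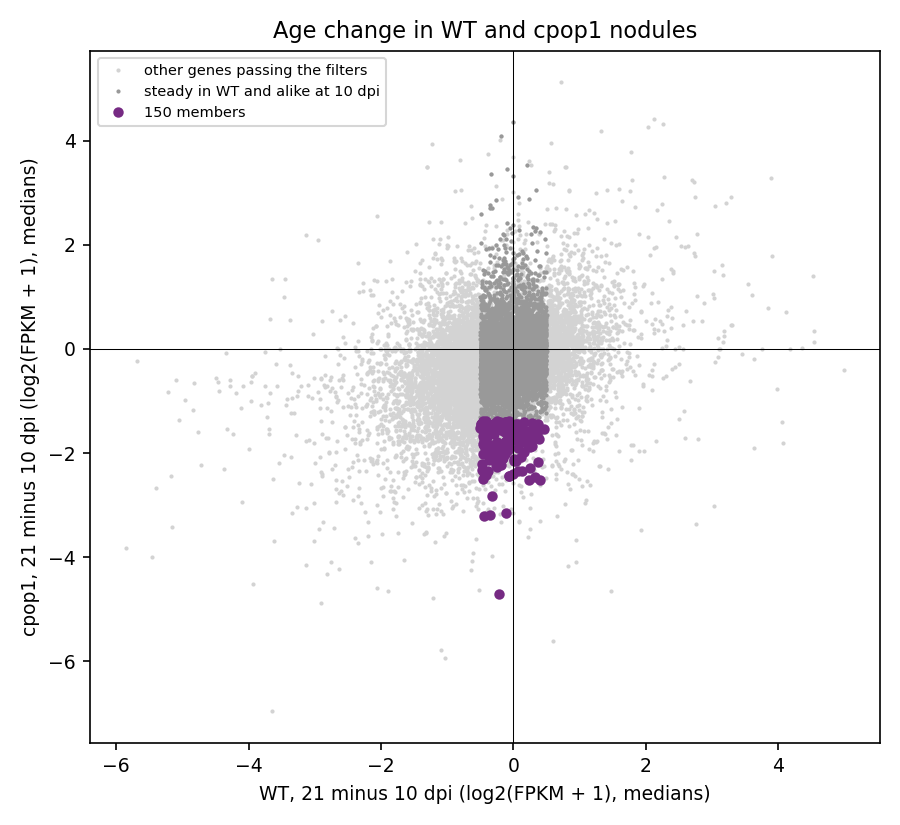
Difference of group medians of log2(FPKM + 1) between 21 and 10 dpi in WT (x axis) and cpop1 (y axis) for genes passing the filters (light grey), genes steady in WT and alike at 10 dpi (dark grey) and the 150 members (purple). The members fill the lower end of the steady genes, from -1.39 down to -4.71 on the y axis.

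LotjaGi4g1v0409100 had the lowest cpop1 change, at -4.71. It was at 65.0, 64.5 and 6.79 FPKM in young WT nodules and at 47.9, 60.0 and 55.4 FPKM in mature ones. In cpop1 it stood at 133, 44.3 and 21.7 FPKM at 10 dpi and at 0.39, 0.73 and 1.44 FPKM at 21 dpi, so its median was 60.7-fold below that of young cpop1 nodules and 75.8-fold below that of mature WT nodules. The mature cpop1 libraries lay below all others, and the young libraries of both genotypes were far apart, with replicate 3 the lowest of each.

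LotjaGi6g1v0079900 was at 89.3, 159 and 167 FPKM in young and 12.4, 18.3 and 16.4 FPKM in mature cpop1 nodules. Its WT libraries ran from 77.8 to 170 FPKM at 10 dpi and from 100.2 to 163 FPKM at 21 dpi, well above mature cpop1 nodules. LotjaGi4g1v0056800 was the least steady of the leading members. In WT it had 9.46, 5.81 and 0.09 FPKM at 10 dpi and 2.44, 4.35 and 33.8 FPKM at 21 dpi. In cpop1 it had 13.6, 12.3 and 6.46 FPKM at 10 dpi and 0.45, 0.45 and 2.63 FPKM at 21 dpi. Mature WT and mature cpop1 libraries overlapped for this gene.

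LotjaGi1g1v0382400 stood at 153.3, 126 and 97.1 FPKM in young cpop1 nodules and at 13.2, 19.2 and 13.3 FPKM in mature ones, a 9.48-fold difference of medians. Its 6 WT libraries lay between 64.9 and 96.5 FPKM. LotjaGi4g1v0045000 was at 31.3, 28.8 and 20.1 FPKM in young and 3.60, 2.66 and 3.20 FPKM in mature cpop1 nodules, against 27.8 to 48.8 FPKM in WT. For both genes all mature cpop1 libraries were below all 9 others.

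LotjaGi4g1v0463800 was at 127, 147.8 and 124 FPKM in young cpop1 nodules and at 21.4, 21.2 and 24.1 FPKM in mature ones, while WT libraries ran from 80.8 to 136 FPKM. LotjaGi1g1v0098700 was at 58.6, 59.7 and 30.6 FPKM in young and at 9.93, 9.09 and 9.47 FPKM in mature cpop1 nodules. The mature cpop1 values of these genes were close together and apart from every other library.

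LotjaGi5g1v0285300 was listed at 0 in all 3 mature cpop1 libraries. It was at 3.31, 4.86 and 4.65 FPKM in young cpop1 nodules, at 8.69, 9.24 and 27.5 FPKM in young WT nodules and at 6.46, 7.85 and 4.84 FPKM in mature WT nodules. No fold is given against a group at 0.

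LotjaGi3g1v0372900 was the most abundant of the 12 leading members, with 537, 466 and 529 FPKM in mature WT nodules against 42.0, 59.6 and 57.5 FPKM in mature cpop1 ones, a 9.19-fold difference of medians. In young nodules it was at 565, 421 and 134 FPKM in WT and at 182, 321 and 344 FPKM in cpop1. The young WT libraries straddled the young cpop1 ones.

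LotjaGi4g1v0417600 was at 35.4, 55.0 and 51.6 FPKM in young and at 7.29, 8.69 and 18.6 FPKM in mature cpop1 nodules, and LotjaGi1g1v0431100 at 95.6, 89.7 and 71.1 FPKM and at 14.0, 19.7 and 15.7 FPKM. Mature WT nodules held 48.7 to 51.4 FPKM of the first and 78.2 to 107 FPKM of the second. LotjaGi3g1v0091000, the last of the 12, was at 37.8, 49.1 and 49.7 FPKM in young and 11.5, 8.35 and 6.97 FPKM in mature cpop1 nodules. Its mature WT level of 15.5, 21.0 and 30.1 FPKM lay much nearer to mature cpop1 nodules than for the others of the 12, with a 2.52-fold difference of medians.

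**Figure D3:**
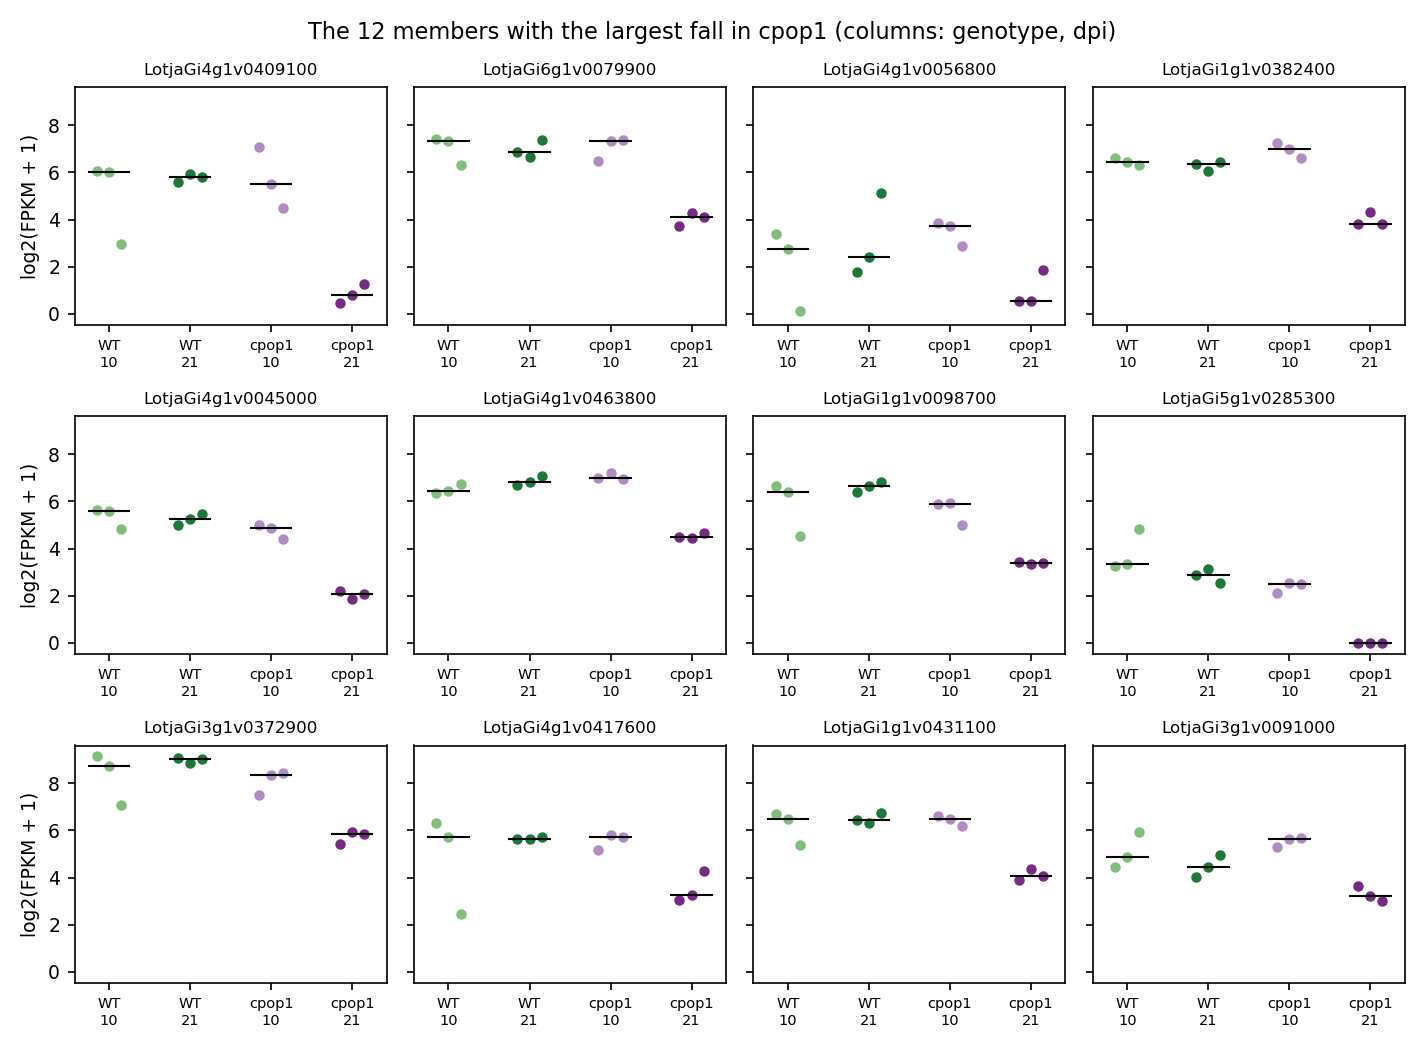
log2(FPKM + 1) of each library (points, in replicate order from left to right) and the group median (bars) for the 12 members with the lowest cpop1 change, by genotype and dpi. Mature cpop1 nodules have the lowest median in each panel, down to 0 FPKM for LotjaGi5g1v0285300, while WT 10 dpi replicate 3 leaves its group in several panels.

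The 5 members highest in mature WT nodules were at about 170 FPKM or more in every mature cpop1 library. In mature WT nodules LotjaGi3g1v0162900 had 1439, 1305 and 1314 FPKM, against 170, 174 and 194 FPKM in mature cpop1 nodules. LotjaGi3g1v0076300 was at 1258, 1275 and 1239 FPKM against 245, 260 and 284 FPKM. By medians both genes were lower in cpop1 at 10 dpi, by 0.77 and 0.78 on the log2 scale. Young libraries of LotjaGi3g1v0162900 did not overlap, at 1081, 1110 and 1537 FPKM in WT and 383, 650 and 817 FPKM in cpop1. Those of LotjaGi3g1v0076300 overlapped, at 1491, 1308 and 305 FPKM in WT and 1099, 760 and 666 FPKM in cpop1. In the linear model described below, the 10 dpi differences were -1.06 and -0.032 (limma, adjusted p 0.0145 and 0.964).

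LotjaGi1g1v0074000 had 1062, 947 and 1063 FPKM in mature WT nodules, against 210, 319 and 267 FPKM in mature cpop1 nodules. LotjaGi5g1v0009100 was at 995, 914 and 1020 FPKM against 299, 332 and 331 FPKM, and LotjaGi1g1v0443800 at 702, 779 and 782 FPKM against 216, 208 and 218 FPKM. For the latter pair, young cpop1 nodules had higher medians than young WT nodules. LotjaGi1g1v0443800 was also spread widely among young cpop1 libraries, at 1783, 710 and 324 FPKM.

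By level in mature WT nodules, 27 members had a median of at least 100 FPKM, 72 of 10 to under 100, 42 of 1 to under 10, and 9 of under 1 FPKM. The median member of these classes kept 31.3%, 27.5%, 23.7% and 0% of its young cpop1 level. In mature cpop1 nodules it held 27.8%, 38.3%, 38.2% and 0% of its mature WT level in FPKM, in the same order. On the log2(FPKM + 1) scale the median mature gaps were -1.84, -1.26, -0.96 and -0.41, where the added 1 FPKM compresses the gaps of the lowest class. Median 10 dpi differences between cpop1 and WT were close to 0 in the first class and 0.33, 0.54 and 0.78 in the others. The choice of members pushes the lowest class this way. A fall of at least 1 on this scale needs a young cpop1 level of at least 1 FPKM. Genes under 1 FPKM in mature WT nodules could thus enter almost only from young cpop1 levels above WT. The 0% values of that class lie at the floor, and no trend with level is read from these classes.

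In 15 members every mature cpop1 library was below 1 FPKM, and in 3 of these, LotjaGi5g1v0285300, LotjaGi2g1v0064000 and LotjaGi4g1v0404700, every one was listed at 0. The last 2 were low in mature WT nodules as well, at 0.46, 0.00 and 0.23 FPKM and at 0.12, 0.12 and 0.25 FPKM. They became members through young cpop1 levels of 1.43 to 2.43 FPKM and 1.11 to 2.03 FPKM. Only 4 of the 15 were at 1 FPKM or more in all 9 other libraries. Among these, LotjaGi6g1v0052200, named after its values were seen, was at 0.85, 0.54 and 0.46 FPKM in mature cpop1 nodules and between 2.42 and 7.48 FPKM elsewhere.

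At the other end, 124 members stayed at 1 FPKM or more in every mature cpop1 library. The steadiest members by their mean SD within groups were among them. LotjaGi6g1v0325100 was at 76.3, 67.2 and 62.2 FPKM in young and 12.7, 14.1 and 12.9 FPKM in mature cpop1 nodules, with WT between 64.3 and 84.6 FPKM. LotjaGi1g1v0382500 was at 73.5, 73.7 and 78.8 FPKM and at 23.4, 22.0 and 23.5 FPKM, with WT between 88.1 and 123 FPKM. LotjaGi4g1v0302700 was at 81.2, 86.8 and 93.1 FPKM and at 33.1, 28.4 and 27.9 FPKM, with WT between 53.2 and 69.4 FPKM. In these 3 genes the mature cpop1 libraries were far outside the spread of every other group.

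The members reached mature cpop1 nodules from different starting points. In young nodules 104 members had a higher median in cpop1 than in WT and 46 a lower one. Of the 7834 steady genes, 3916 were higher and 3906 lower. Ranking by the fall from the young cpop1 median favours genes high in young cpop1 nodules, so the members' lean is not read as a result. Members that started above WT had a median WT level of 14.9 FPKM at 10 dpi and 13.5 FPKM at 21 dpi, against 21.2 and 5.87 FPKM in cpop1. The 46 that started below were more abundant, at 65.8 and 64.1 FPKM in WT against 43.9 and 10.1 FPKM in cpop1. Their cpop1 change was about as large (median -1.72, against -1.68 for the others), and their mature gap to WT was wider, with a median of -2.16 against -1.02. All 46 had a mature gap of -1 or below, and 53 of the 104 did. The mature gap is exactly the young gap plus the cpop1 change minus the WT change. For members that started below WT, the limits of the rule leave little room for a mature gap above -1. The split of mature gaps by starting point thus follows from the choice of members and is no separate result.

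**Figure D4:**
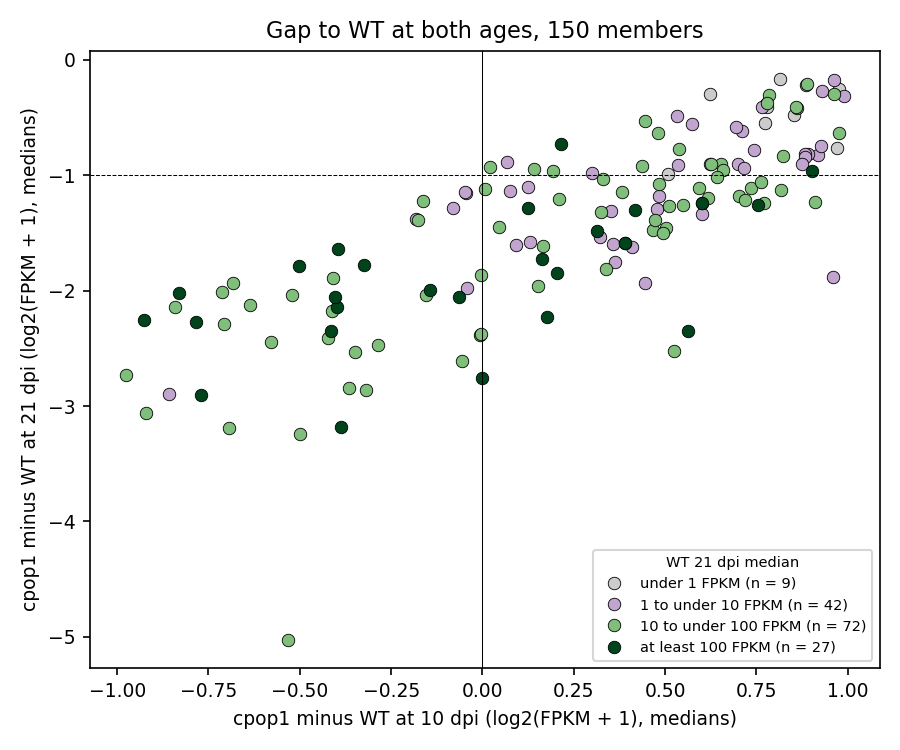
Difference of group medians of log2(FPKM + 1) between cpop1 and WT at 10 dpi (x axis) and 21 dpi (y axis) for the 150 members, coloured by their median FPKM in mature WT nodules; the dashed line marks a 2-fold gap at 21 dpi. Members with at least 100 FPKM lie mostly low, with a median mature gap of -1.84, and on both sides of 0 on the x axis, and the 9 under 1 FPKM have a median mature gap of -0.41.

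In all, 99 members had a mature gap to WT of -1 or below and 35 of -2 or below. Among all 22249 tested features, 3391 and 849 had such gaps. By medians, 0 members were as high in mature cpop1 as in mature WT nodules, which the limits of the rule nearly fixed in advance. The median member held 33.9% of its mature WT level in FPKM, and the highest 85.6%. The remaining 51 members, with a mature gap above -1, all belonged to those that started above WT, as the same limits nearly require.

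A linear model was fitted to log2(FPKM + 1) of all 22249 features that reached 1 FPKM in at least 3 libraries (limma, Benjamini-Hochberg adjusted p under 0.05). The medians behind the choice of members come from the same libraries, so the counts are a description. For cpop1 at 21 against 10 dpi, 142 of 150 members were called lower, against 21.5% of all features. The 8 not called include LotjaGi4g1v0056800, LotjaGi4g1v0417600 and LotjaGi3g1v0195000. LotjaGi3g1v0195000 had the widest spread among young cpop1 libraries, at 191, 29.1 and 4.92 FPKM, and was at 5.93, 6.32 and 7.56 FPKM in mature ones. It was the exception among members in that its cpop1 libraries of the 2 ages overlapped: in the other 149, all mature libraries were below all young ones, as in 40.8% of all features.

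At 21 dpi, 118 members were called lower in cpop1 than in WT, against 28.4% of all features, and in 134 the libraries did not overlap, against 36.2%. Both calls, lower than young cpop1 and lower than mature WT nodules, were met by 117 members and 8.29% of features. In 124 members every mature cpop1 library was below all 9 others, against 14.0% of features. The age change was called more negative in cpop1 than in WT for 113 members, against 10.2% of features. Without WT 10 dpi replicate 3 the last count was 140, against 21.9% of features in that fit, and the lowest count without any single library was 89, against 6.53%.

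For WT at 21 against 10 dpi, 8 members were called, against 35.8% of all features: 7 lower (24.4%) and 1 higher (11.3%) at 21 dpi. WT libraries of the 2 ages did not overlap in 46 members, against 49.2% of features. Without WT 21 dpi replicates 1, 2 and 3 in turn, 1, 4 and 4 members were called, against 24.2%, 24.3% and 25.1% of features. Without WT 10 dpi replicates 1, 2 and 3 in turn, 21, 13 and 18 were called, against 39.7%, 36.1% and 45.0%, and without cpop1 10 dpi replicate 1, 13 were, against 35.3%. After shifting library medians to one value, making library totals equal and rescaling without the 20 most abundant features, 15, 22 and 14 members were called, against 35.9%, 39.0% and 35.8%. With library weights 64 members were called, against 65.0%. A level not called changed is not shown to be steady. The 95% interval of the fitted WT change lay within -1 and 1 for 96 members and reached -1 or below for 33, so for these a WT fall of the size required in cpop1 was not excluded by the fit. The rule set the WT change by medians, which set aside WT replicate 3 where it stood apart.

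For cpop1 against WT at 10 dpi, 29 members were called, against 22.7% of all features: 23 higher (11.4%) and 6 lower (11.3%) in cpop1. Libraries of the genotypes did not overlap in 40 members, against 28.5% of features. The 95% interval of the 10 dpi difference lay within -1 and 1 for 70 members. Both the members' count and that of all features depended on single libraries. Without WT replicate 3, 83 members and 64.0% of all features were called at 10 dpi. Without WT replicate 1 or 2 the count was 11 members, against 9.76% and 9.07% of features. It was 11 without cpop1 replicate 2, against 10.3%, and 18 without cpop1 replicate 1, against 15.2%. With library weights, 124 members and 83.5% of features were called at 10 dpi. The members' count thus rose and fell with the share of all features, and no trait of the members is read from it.

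Which library of a group was high or low did not enter the rule beyond the median. A wide range within a group was more frequent among members than among the 7834 steady genes in all 4 groups, and among members it was most frequent in WT at 10 dpi. The range of log2(FPKM + 1) over the 3 WT 10 dpi libraries was at least 1 for 60 members (40.0%, against 16.6% of the steady genes), and over the cpop1 10 dpi libraries for 26 (17.3%, against 2.73%). At 21 dpi it was at least 1 for 7 members in WT (4.67%, against 0.868%) and for 6 in cpop1 (4.0%, against 0.536%). Most members had a narrower range in each group, and the part of the spread in their selection was not tested.

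WT 10 dpi replicate 3 lay within 1 of the mean of replicates 1 and 2 on the log2(FPKM + 1) scale in 96 members. In 30 others (20%, against 2.99% of the steady genes) it was at least 1 below that mean, and in 24 (16.0%, against 10.3%) at least 1 above. The largest departures were those of LotjaGi4g1v0417600 (79.2 and 51.8 FPKM in replicates 1 and 2, 4.43 in replicate 3), LotjaGi4g1v0409100 and LotjaGi4g1v0056800.

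The 30 members low in replicate 3 were abundant in other WT libraries, with medians of 89.7 and 78.3 FPKM in young replicates 1 and 2 and 81.3 to 104 FPKM in mature WT nodules, against 25.5 FPKM in replicate 3. In cpop1 they stood at 89.0, 57.3 and 47.0 FPKM at 10 dpi and at 11.2, 14.6 and 16.1 FPKM at 21 dpi, and 29 of the 30 had a mature gap to WT of -1 or below. The 24 members high in replicate 3 had medians of 7.27, 8.16 and 20.4 FPKM in young WT nodules and 2.40 to 2.53 FPKM in mature cpop1 nodules, and 9 of the 24 had such a gap. Among the other 96 members, 61 had one. By medians, 9 of the 30 and 21 of the 24 started above WT in young cpop1 nodules. The choice of members ties the mature gap to the starting point, so this contrast in gaps is no separate result. In cpop1 at 10 dpi, replicate 1 was above replicate 3 in 23 of the 30 members and in 7 of the 24. Over all 150 members the departure of WT replicate 3 and the difference between cpop1 10 dpi replicates 1 and 3 were correlated at r = -0.39 (Pearson) and rho = -0.35 (Spearman), against -0.29 and -0.31 over the 7834 steady genes. These correlations are across genes of the same 6 libraries and describe those libraries.

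**Figure D5:**
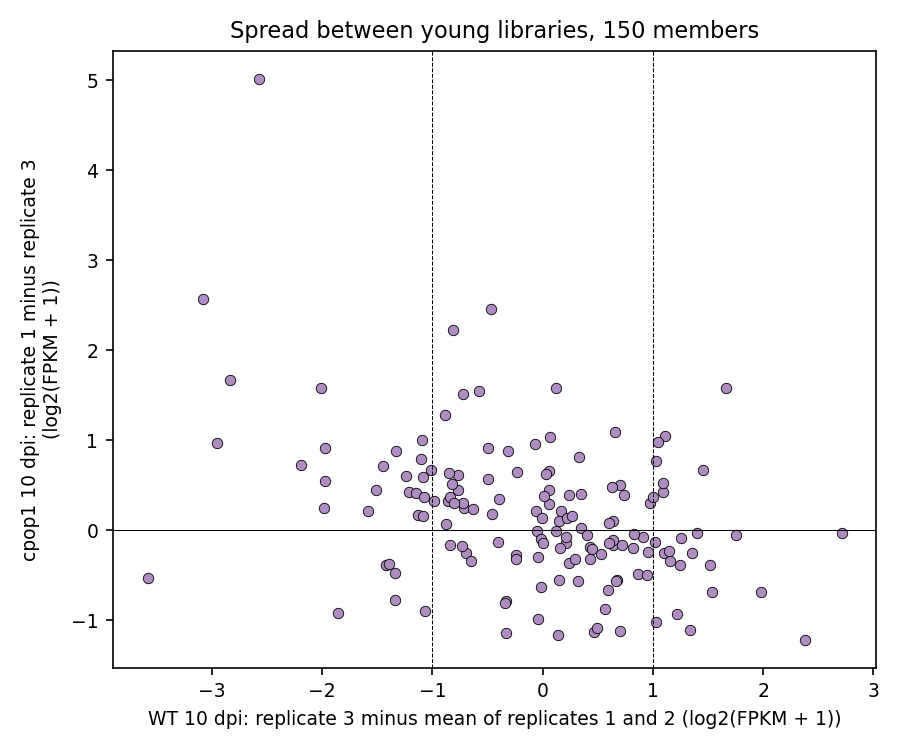
For the 150 members, the departure of WT 10 dpi replicate 3 from the mean of replicates 1 and 2 (x axis) against the difference between cpop1 10 dpi replicates 1 and 3 (y axis), both in log2(FPKM + 1); dashed lines mark a 2-fold departure. The 30 members left of -1 lie mostly above 0 and the 24 right of 1 mostly below it, as the correlation of -0.39 gives.

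The digit after LotjaGi in an ID was taken as the chromosome and the last number as the order along it, which no file states. Chromosome 1 held 46 members (30.7%, against 26.8% of the 7834 steady genes), chromosome 2 held 21 (14.0%, against 13.8%), chromosome 3 held 24 (16.0%, against 18.3%), chromosome 4 held 22 (14.7%, against 16.3%), chromosome 5 held 21 (14.0%, against 12.5%) and chromosome 6 held 16 (10.7%, against 12.3%). The members were thus spread over all chromosomes in shares near those of the steady genes.

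In 10 pairs of members at most 5 other listed IDs lay between the partners, and in 5 of these at most 1. Such pairs were not counted among other genes, so no clustering is read from these numbers. LotjaGi1g1v0382400 and LotjaGi1g1v0382500, next to each other in the list, kept 10.5% and 31.7% of their young cpop1 level. LotjaGi5g1v0363300 and LotjaGi5g1v0363400, also adjacent, were at 186, 363 and 409 FPKM and at 13.0, 22.5 and 26.8 FPKM in young cpop1 nodules, both lowest in replicate 1, and kept 22.7% and 32.7%.

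LotjaGi1g1v0786400 and LotjaGi1g1v0786500, the third adjacent pair, were at 148.2 to 175 FPKM and 8.32 to 11.3 FPKM in mature WT nodules and at 35.4 to 41.1 FPKM and 6.43 to 9.29 FPKM in mature cpop1 nodules. For the second gene of this pair the mature groups of the genotypes overlapped. LotjaGi1g1v0794900 with LotjaGi1g1v0795100 kept 27.0% and 22.2%, and LotjaGi4g1v0417600 with LotjaGi4g1v0417800 kept 16.8% and 24.2% of their young cpop1 level. The partners of a pair differed in level, and whether any share reads as near-identical copies is not known from these files. Of 221 tested IDs listed directly beside a member and not members themselves, 45 (20.4%) had a cpop1 change of medians of -1 or below, against 13.8% of 19223 tested features with a chromosome digit from 1 to 6.

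At the cut of 150, the members just inside were LotjaGi2g1v0064000, LotjaGi4g1v0404700 and LotjaGi5g1v0221100, at -1.39 each. Just outside lay LotjaGi4g1v0231200, LotjaGi2g1v0227000 and LotjaGi1g1v0072300, at -1.38 each. At the limit on the 10 dpi difference, LotjaGi3g1v0038800 was inside at 0.99 and LotjaGi2g1v0291100 outside at -1.01. At the limit on the WT change, LotjaGi5g1v0272300 was inside at -0.499 and LotjaGi1g1v0624800 outside at -0.5001.

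Membership depended on the scaling and on single libraries. The rule picked 62 of the 150 again under each of 4 other scalings, 45 without each of the 12 libraries in turn, and 30 under all of these. LotjaGi1g1v0382400, LotjaGi4g1v0045000 and LotjaGi1g1v0431100 were the genes among the 12 leading members that were picked every time. LotjaGi4g1v0409100 was picked under all 4 scalings and without 9 of the 12 libraries, and LotjaGi4g1v0056800 without 5 of the 12.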

How the data were processed

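RNA sequencing of root nodules gave 12 libraries, 3 per group, and the authors deposited FPKM per feature and library, as the file header names them. The submitters' processing notes list HISAT and Bowtie2 2.2.5 but not what each did. Which genome build, annotation and FPKM software were used is not given in the sources used here. Mutant columns were tied to samples through the labels' descriptions. FPKM give no read depth, so no counting interval is given. Members were chosen by medians of log2(FPKM + 1), and members, lists and tests were chosen with earlier results of these data known. Genes with at least 1 FPKM in 3 libraries (22249) were fitted with limma 3.58.1 in R 4.3.3 on log2(FPKM + 1), 1 mean per group, with an intensity trend. Calls needed an adjusted p (Benjamini-Hochberg) below 0.05. On this scale, changes of low genes are understated. The fit was tested on simulated data. Named genes are the 12 members with the lowest cpop1 change, the 5 highest in mature WT, the 3 widest among young cpop1 libraries, the 3 in which WT 10 dpi replicate 3 departs most, the 3 steadiest, close ID pairs and genes at the limits of the rule. Alternatives were other pseudocounts (0.1, 0.5), filters (none, 5 FPKM), 4 scalings, a replicate block, the compared groups alone, library weights and leaving out each library. Same-numbered libraries did not deviate together in all groups (correlations of deviations from -0.0756 to 0.270), so replicate numbers were not taken as pairs. The largest, 0.270 and 0.219, were between WT and cpop1 at 10 dpi for replicates 1 and 3, with -0.0581 for replicate 2. A replicate effect limited to 10 dpi was not tested. Descriptive values came from pandas 2.3.3, NumPy 2.4.6 and SciPy 1.17.1 (Python 3.11.15), and plots from matplotlib 3.10.9.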

Additional observations from a re-analysis of the deposited data

Results flagged for a closer look

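The age change itself was called more negative in cpop1 than in WT for 113 of the 150 members, against 10.2% of all features (limma, adjusted p under 0.05). Leaving out single libraries gave from 89 members, against 6.53% of features, to 140, against 21.9%, the latter without WT 10 dpi replicate 3. The rule for choosing members used medians of the same libraries. The count of 113 describes how many members exceed a spread pooled over all groups, WT 10 dpi replicate 3 included. It is not independent evidence of a difference between the genotypes.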

How the results depend on the processing

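No fitted cpop1 age change of a named gene changed sign under an alternative: 807 values stayed within 1 SD of the spread between replicates and 59 moved further. All named genes had met the limit on the cpop1 fall in the same libraries, so a change of sign was unlikely from the outset. The median fitted cpop1 change over the members (-1.64) was -1.84 with a pseudocount of 0.1, -1.45 with quantiles equalised, -1.37 with library medians shifted to one value and -1.81 with totals made equal. The median mature gap to WT (-1.27) was -1.42 with a pseudocount of 0.1 and -1.43 after the median shift. The median WT change (-0.12) was 0.24 after the median shift and 0.091 after quantile normalization, both of the opposite sign, and -0.23 with totals made equal; the cause was not tested. For WT with age, 8 of the 150 members were called as deposited. After the median shift, the common total and rescaling without the 20 most abundant features, 15, 22 and 14 of the 150 were called. With library weights 64 were called. The shares of all features in the same fits were 35.9%, 39.0%, 35.8% and 65.0%. At 10 dpi, library weights gave 124 in place of 29 members, against 83.5% of features. Fits to the compared groups alone called 0 members in either comparison (limma), with 16 for WT age and 34 at 10 dpi at an unadjusted p under 0.05, and called 15.9% and 3.06% of features. The median shift picked 87 of the 150 members again. Leaving out single libraries gave 11 to 83 calls at 10 dpi, while the share of all features called ran from 9.07% to 64.0%. For WT age it gave 1 to 21 calls, with shares from 24.2% to 45.0%. The rule then picked 81 to 140 members again, the lowest without WT 10 dpi replicate 1 and next 89 without replicate 2. With a replicate block, 142 members were called lower with age in cpop1, against 20.8% of features. A more negative age change was called for 110, against 9.62%, and the other counts moved by less than 1.5 times.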
